A study of Mus musculus with 16 samples.

Results

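The Mef2 transcription factors and the class IIa histone deacetylases were examined in mouse pmi28 muscle cells. The members were the genes carrying 1 of 8 symbols in the deposited table of gene counts: the 4 factors Mef2a, Mef2b, Mef2c and Mef2d, and the 4 deacetylases Hdac4, Hdac5, Hdac7 and Hdac9. All 8 were found among 19799 named genes, and all 8 were among the 16245 genes that passed the filter on low counts and were tested. MEF2 proteins bind an A/T-rich DNA element in the control regions of many muscle genes and activate them together with the MyoD family of basic helix-loop-helix factors. Class IIa histone deacetylases carry an MEF2-binding region at their amino terminus and, in the nucleus, turn MEF2 from an activator into a repressor. Phosphorylation by calcium-dependent and related kinases creates sites for 14-3-3 proteins, which take these deacetylases out to the cytoplasm, so transcript levels do not show how much of the protein is nuclear.

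RNA was sequenced from 2 transgenic lines of pmi28 myoblasts, 1 carrying doxycycline-inducible msx2 together with GFP (the msx2 line) and 1 carrying inducible GFP alone (the GFP line). Msx2 is a homeodomain transcription factor. Each line gave 2 libraries of proliferating myoblasts without doxycycline, 3 libraries of uninduced myotubes and 3 libraries of myotubes given 2 µg/ml doxycycline for 24 h in growth medium, 16 libraries in 6 groups. Myoblasts grew in medium with 20% fetal bovine serum. Myotubes were formed in 10% horse serum for 3 days, detached, separated by size through a mesh and replated on gelatin with the DNA synthesis inhibitor AraC, so all myotube groups share that handling. Differentiation below means uninduced myotubes against myoblasts. In that comparison differentiation cannot be told apart from the handling, AraC and the change of serum. The medium of the uninduced myotubes during the last 24 h is not given in the sources used here, so doxycycline and any change of medium cannot be told apart within a line, and the GFP line is the comparison for both. Each construct was represented by 1 line, so construct and line cannot be told apart either. The labels do not say that replicates were separate cultures, so every p-value rests on the spread among the libraries at hand, and that spread may be technical.

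The libraries held 19784873 to 33092666 counts. Msx2, in counts per 1000000 counts of a library (CPM), was at 1440 ± 87.1 (SD, n = 3) after induction of the msx2 line. Without doxycycline that line had 13.7 ± 1.94 CPM (n = 3) in myotubes and 16.6 ± 0.277 CPM (n = 2) in myoblasts. The GFP line had at most 1.43 CPM as a group mean. The part of this uninduced Msx2 in differences between the lines was not tested. Within every group but 1, replicate libraries differed well beyond counting noise, with a chi-square of 10.5 to 31.3 per degree of freedom. The 2 GFP-line myoblast libraries differed least, at 1.95. The 9 detected markers of differentiated myotubes summed to 926 to 974 CPM in msx2-line myoblasts, 23500 to 27600 CPM in uninduced and 12100 to 15000 CPM in induced myotubes of that line, against 28000 to 31000 and 26900 to 30700 CPM in the GFP line. In msx2 induction 6 of these 9 fell, where 16.2% of all genes tested were higher and 16.3% lower. The part of these markers in the results on the members was not tested. Genes of cycling myoblasts summed to 25.4 to 60.8 CPM in induced msx2-line myotubes against 27.4 to 38.3 CPM in uninduced myotubes and 1180 to 1190 CPM in myoblasts of that line. Chondrocyte markers summed to 20.6 to 22.9 CPM before and 46.7 to 56.2 CPM after induction, with 2 of 5 higher. Smooth muscle markers summed to 1180 to 1620 CPM before and 568 to 1140 CPM after, with 1 of 6 higher and 1 lower. Fibroblast markers summed to 252 to 736 CPM before and 303 to 895 CPM after, with 1 of 5 tested higher. In GFP-line myotubes they summed to 336 to 383 and 345 to 405 CPM. Neuron markers (1 of 5 lower) summed to 81.9 to 89.9 and 61.3 to 84.4 CPM in the msx2 line. Leukocyte markers (1 of 4 tested higher and 1 lower) summed to 22.7 to 25.3 and 23.9 to 26.2 CPM there. The parts of these lists in the results were not tested. Markers of endothelium, a tissue in which Hdac7 has a known role, summed to 42.9 to 50.0 and 41.7 to 46.0 CPM. In bulk RNA, fewer cells of a type and less RNA per cell cannot be told apart.

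Promoter sequence is shown for the 2 members with the largest changes on msx2 induction, Mef2c and Hdac7, and for the 2 members whose windows held the MEF2 consensus site, Hdac5 and Mef2a. All 8 members matched RefSeq transcript starts on GRCm38.p6 and gave 14 windows of 300 bases, from 250 bases before to 50 after a start. Except for Mef2a, the letters shown are the 250 bases before the start. Matches in the 50 bases after it are counted but not shown, such as an E-box beginning at 4 in the Hdac5 window. Letters are 5′ to 3′ on the gene's strand, and capitals mark matches on either strand to the MEF2 consensus site, to the E-box CANNTG bound by basic helix-loop-helix factors, or to TAATTG, a core bound by many homeodomain proteins.
Mef2c, start 1 of 3, chr13:83503784-83504033, plus strand: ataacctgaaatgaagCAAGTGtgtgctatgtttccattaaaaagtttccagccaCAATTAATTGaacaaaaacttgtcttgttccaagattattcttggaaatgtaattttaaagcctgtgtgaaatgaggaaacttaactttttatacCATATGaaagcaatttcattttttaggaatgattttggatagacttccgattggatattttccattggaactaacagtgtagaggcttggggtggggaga
Hdac7, start 1 of 4, chr15:97844503-97844752, minus strand: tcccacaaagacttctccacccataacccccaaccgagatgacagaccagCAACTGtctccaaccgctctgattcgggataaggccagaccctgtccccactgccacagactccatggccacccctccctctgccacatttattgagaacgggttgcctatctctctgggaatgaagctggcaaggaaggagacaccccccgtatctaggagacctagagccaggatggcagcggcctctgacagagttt
Hdac5, chr11:102230173-102230422, minus strand: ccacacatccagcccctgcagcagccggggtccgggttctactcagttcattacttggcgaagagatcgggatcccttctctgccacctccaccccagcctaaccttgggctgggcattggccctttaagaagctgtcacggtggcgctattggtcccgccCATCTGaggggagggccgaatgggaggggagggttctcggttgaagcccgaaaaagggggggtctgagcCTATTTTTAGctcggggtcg
Mef2a, site with 10 bases on each side, chr7:67372841-67372870, minus strand: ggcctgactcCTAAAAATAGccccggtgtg
The Mef2c window held 2 TAATTG matches on opposite strands, beginning at -195 and -191 from the start and sharing 2 bases. The Mef2a site began at -2 and ran across the start, and the Hdac5 site began at -20. In all, 2 of the 14 windows held the MEF2 site, 8 held an E-box and 3 held TAATTG (Mef2c start 1, Hdac4 and Hdac9 start 2). Among 32851 RefSeq windows of the same length these shares were 0.557%, 72.3% and 8.0%. These matches describe the letters only, and gene-level counts do not show which start was used.

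Differentiation moved most members. In GFP-line myotubes against myoblasts, 5 members were higher (Mef2c, Mef2a, Mef2d, Mef2b and Hdac4) and 2 lower (Hdac7 and Hdac9) by edgeR's quasi-likelihood test at a Benjamini-Hochberg adjusted p under 0.05. That comparison called 77.7% of all genes tested (39.8% higher and 37.9% lower), so a member that passed there was like most genes. In the msx2 line 4 members were higher and 3 lower, where 79.8% of all genes passed (40.8% higher and 39% lower). The difference between the lines' differentiations passed for 1 member, Mef2d, which was lower, against 8.28% of all genes (4.01% higher and 4.27% lower). Mef2a also passed there without replicate 2 of the msx2-line uninduced myotubes (0.36, adjusted p = 0.0468).

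Induction of msx2 in finished myotubes moved 6 of the 8 members. Mef2a, Hdac4, Hdac5 and Hdac7 were higher and Mef2c and Hdac9 lower. In that comparison 32.5% of all genes passed, 16.2% higher and 16.3% lower. The median log2 fold change was 0.29 over the 8 members and -0.01 over all genes tested. Doxycycline in the GFP line gave 0 of 8 members past the same test, 0 at an unadjusted p under 0.05 and 0 by DESeq2, against 0.0308% of all genes. The difference between the 2 inductions passed for Mef2a, Hdac4, Hdac5 and Hdac7 upwards and Mef2c downwards, against 17.9% of all genes (9.15% higher and 8.78% lower). The plot of fold changes shows both differentiations and both inductions.

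**Figure D1:**
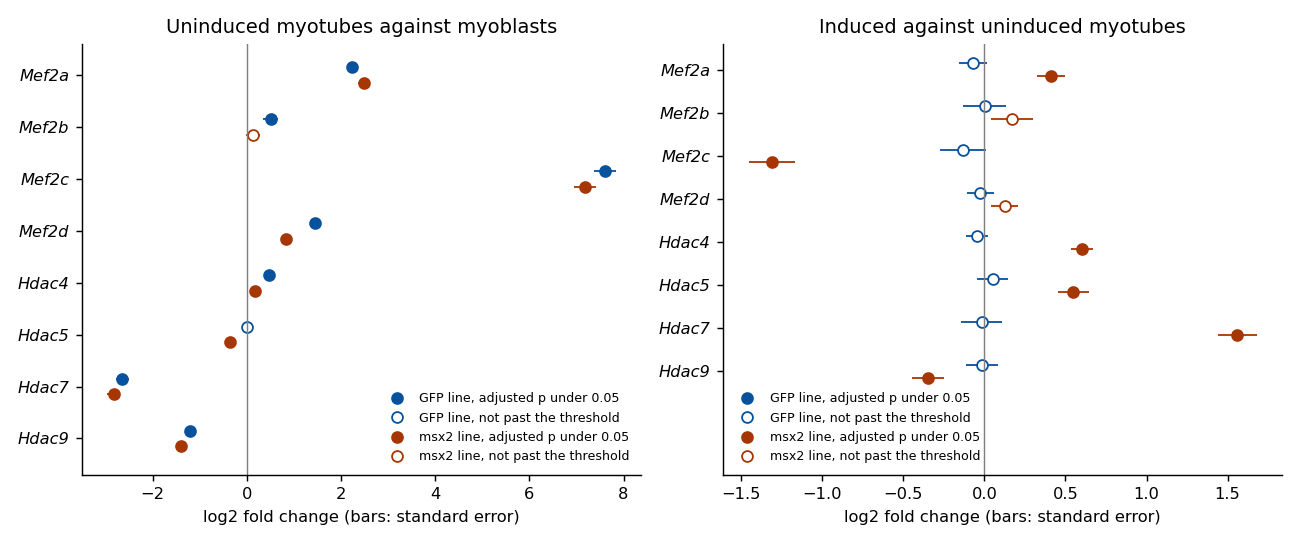
Log2 fold changes of the 8 members with their standard errors: myotubes against myoblasts in each line (left) and induced against uninduced myotubes in each line (right); filled points passed an adjusted p of 0.05 in edgeR. Mef2c and Hdac7 have the largest changes in the msx2 line on both sides and in opposite directions, and the 8 GFP-line inductions sit close to 0.

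Mef2c, the family member most tied to the onset of muscle differentiation, had the largest change of the 8 members in differentiation of both lines. In myoblasts it was at 6.91 and 9.05 CPM in the msx2 line and 8.72 and 7.62 CPM in the GFP line. Uninduced myotubes had 1280, 1076 and 1132 CPM in the msx2 line and 1872, 1485 and 1407 CPM in the GFP line. Induced myotubes had 408, 433 and 564 CPM in the msx2 line and 1656, 1309 and 1375 CPM in the GFP line. Myoblasts of both lines overlapped at the bottom, the induced msx2-line myotubes came next, then the uninduced msx2-line myotubes, and the 2 GFP-line myotube groups overlapped at the top. Differentiation raised Mef2c by 7.60 ± 0.24 on the log2 scale (SE; adjusted p = 2.15e-12) in the GFP line and by 7.18 ± 0.23 (adjusted p = 3.28e-12) in the msx2 line. Induction of msx2 lowered it to 40.3% of the uninduced level (log2 -1.31 ± 0.14, adjusted p = 7.64e-06), and the difference from the GFP line's induction was -1.18 ± 0.20 (adjusted p = 0.000907). The GFP line's own induction gave -0.13 ± 0.14 with a 95% interval of -0.41 to 0.14. Induced msx2-line myotubes kept 58.6-fold more Mef2c than myoblasts of that line (5.87 ± 0.22, adjusted p = 1.14e-11). With log2 CPM set to 0 at the msx2-line myoblast mean and 1 at the uninduced myotube mean, the induced libraries lay at 0.82 ± 0.03 (SD, n = 3). The uninduced lines differed by -0.45 ± 0.14, msx2 line minus GFP line, without overlap of the libraries but not past the test (adjusted p = 0.278).

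Mef2a, a widely expressed family member, was at 40.7 and 41.0 CPM in msx2-line and 42.8 and 45.0 CPM in GFP-line myoblasts. Uninduced myotubes had 257, 192 and 234 CPM in the msx2 line and 219, 203 and 199 CPM in the GFP line. Induced myotubes had 320, 288 and 299 CPM in the msx2 line and 209, 185 and 197 CPM in the GFP line. The induced msx2-line libraries were the highest of all 16, and the other 3 myotube groups overlapped. Differentiation raised Mef2a 4.71-fold in the GFP line (adjusted p = 4.22e-11) and 5.57-fold in the msx2 line (adjusted p = 1.48e-11). Induction of msx2 raised it further, 1.33-fold (log2 0.41 ± 0.09, adjusted p = 0.0018), away from the myoblast level. This rise exceeded that in the GFP line by 0.48 ± 0.12 (adjusted p = 0.0124), where the 95% interval was -0.24 to 0.10. Lysmd4, which overlaps Mef2a on the opposite strand, went the other way (12.9 to 9.13 CPM, -0.49 ± 0.15, adjusted p = 0.0223). Whether overlapping genes shared reads was not tested, for Mef2a or for any other member.

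Mef2d, also widely expressed, was at 82.2 and 76.3 CPM in msx2-line and 62.8 and 63.3 CPM in GFP-line myoblasts. Uninduced myotubes had 146, 137 and 143 CPM in the msx2 line and 187, 170 and 157 CPM in the GFP line. Induced myotubes had 154, 138 and 172 CPM in the msx2 line and 185, 163 and 157 CPM in the GFP line. Every myotube library was above every myoblast library, and induction left the libraries overlapping in both lines. Differentiation raised Mef2d by 1.44 ± 0.10 in the GFP line (adjusted p = 2.67e-09) and by 0.84 ± 0.10 in the msx2 line (adjusted p = 9.18e-07), a difference of -0.60 ± 0.14 (adjusted p = 0.0126). It was the 1 member whose myoblasts differed between lines, at 0.33 ± 0.11 higher in the msx2 line (adjusted p = 0.0444), where 16.3% of all genes passed (9.09% higher and 7.24% lower). Both of these calls were lost when single libraries were left out: the first without replicate 1 of the msx2-line myoblasts (adjusted p = 0.0911) or either GFP-line myoblast library (0.0576 and 0.0648), and the second without 1 of 8 libraries in turn and with upper-quartile scaling (0.0839). On msx2 induction Mef2d gave 0.12 ± 0.08 (95% interval -0.04 to 0.29, adjusted p = 0.29). In the uninduced lines it gave -0.27 ± 0.08 (adjusted p = 0.256). There edgeR passed 0 of 8 members, 2 of them (Mef2c and Mef2d) at an unadjusted p under 0.05, and DESeq2 passed 0, against 0.0616% of all genes (0.00616% higher and 0.0554% lower). With the replicate block 173 genes passed there instead of 10, and again 0 members.

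Mef2b, the most divergent family member, stayed between 4.76 and 8.57 CPM in all 16 libraries, from 102 to 262 counts a library. Myotube groups overlapped between lines and between induced and uninduced cultures, and msx2-line myoblasts (6.64 and 5.72 CPM) lay above GFP-line myoblasts (4.76 and 5.34 CPM) without passing the test (adjusted p = 0.261). It was 1.42-fold higher in GFP-line myotubes than in myoblasts (0.51 ± 0.15, adjusted p = 0.00716), without passing when GFP-line myoblast replicate 1 was left out (0.42, adjusted p = 0.0758). In the msx2 line its differentiation gave 0.14 ± 0.15 (adjusted p = 0.397), but it passed with upper-quartile scaling (0.36, adjusted p = 0.0431), at 5 CPM (0.35, 0.0454) and with GC correction and block (0.49, 0.00331). Its msx2 induction gave 0.17 ± 0.13 (95% interval -0.08 to 0.43, adjusted p = 0.352). Borcs8 overlaps Mef2b on the same strand and was not in the table.

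**Figure D2:**
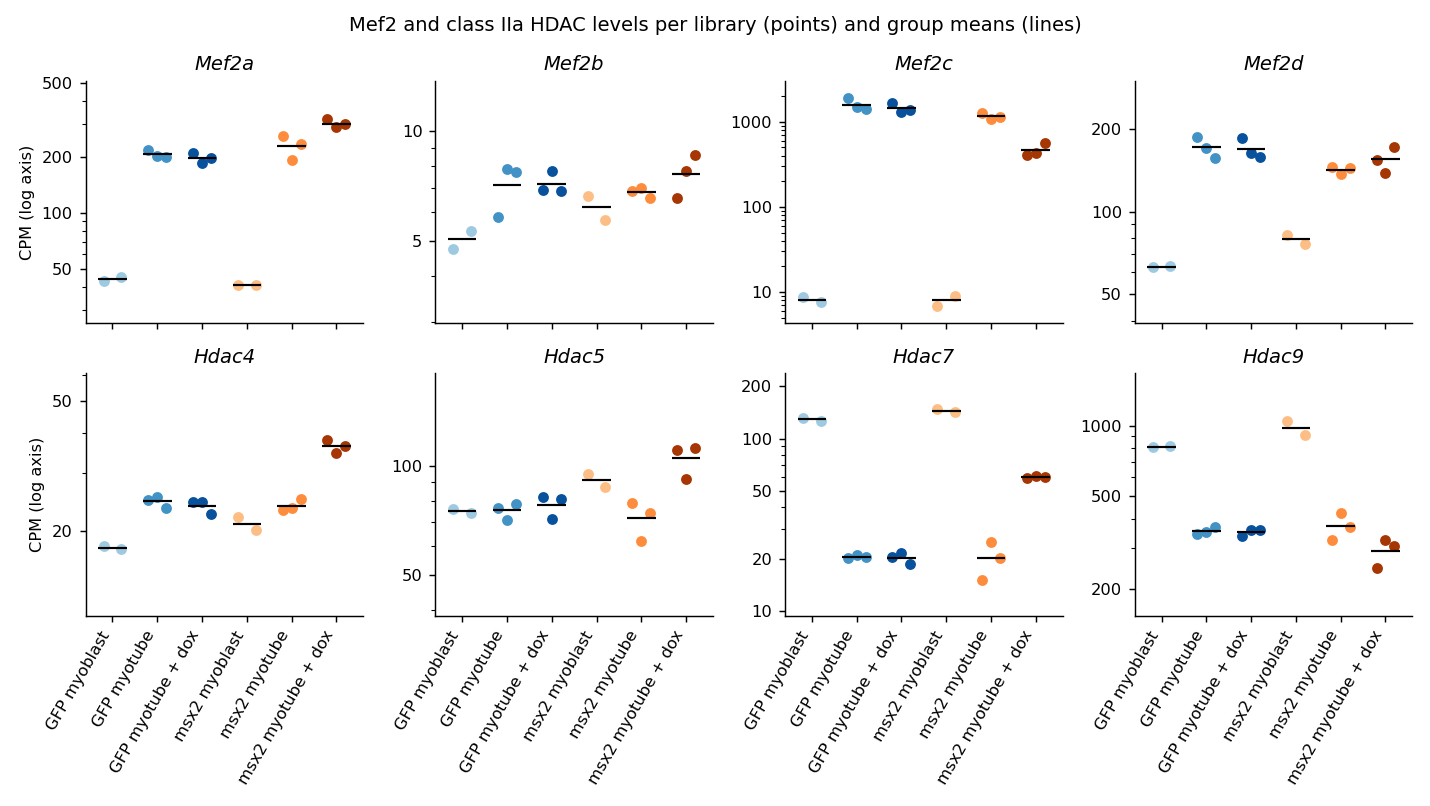
CPM of each member in each of the 16 libraries on log axes, 1 panel a gene; points are libraries, horizontal lines are group means, and groups are ordered from myoblasts to induced myotubes in each line. Mef2c spans 6.91 to 1872 CPM, Hdac7 falls from above 125 CPM in myoblasts and rises again only in induced msx2-line myotubes, and Mef2b stays under 9 CPM throughout.

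Among the deacetylases, Hdac7 changed most. In myoblasts it was at 149 and 142 CPM in the msx2 line and 132 and 126 CPM in the GFP line. Uninduced myotubes had 15.1, 25.3 and 20.3 CPM in the msx2 line and 20.3, 21.2 and 20.6 CPM in the GFP line. Induced myotubes had 59.2, 60.6 and 59.9 CPM in the msx2 line and 20.7, 21.8 and 18.8 CPM in the GFP line. The 3 uninduced or GFP-induced myotube groups overlapped at the bottom, the induced msx2-line libraries stood alone in the middle, and all myoblast libraries were above them. Differentiation lowered Hdac7 to 16.0% of the myoblast level in the GFP line (-2.64 ± 0.13, adjusted p = 9.45e-11) and to 14.0% in the msx2 line (-2.83 ± 0.13, adjusted p = 4.04e-11). Induction of msx2 raised it 2.94-fold (1.56 ± 0.12, adjusted p = 1.66e-07), which exceeded the GFP line's change by 1.57 ± 0.17 (adjusted p = 1.81e-05). The GFP line gave -0.02 ± 0.13, with a 95% interval of -0.26 to 0.23. Induced msx2-line myotubes remained below myoblasts at 41.3% (-1.28 ± 0.13, adjusted p = 1.85e-07) and lay at 0.45 ± 0.01 on the scale from myoblasts (0) to uninduced myotubes (1). Slc48a1, which overlaps Hdac7 on the opposite strand, also rose on msx2 induction, from 79.5 to 133 CPM (0.74 ± 0.15, adjusted p = 0.00133). It changed by -0.47 in differentiation of the GFP line and by -0.42 in that of the msx2 line, against -2.64 and -2.83 for Hdac7 in the same order.

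Hdac4, a repressor of MEF2, was at 22.0 and 20.1 CPM in msx2-line and 18.0 and 17.6 CPM in GFP-line myoblasts. Uninduced myotubes had 23.1, 23.5 and 25.0 CPM in the msx2 line and 24.9, 25.3 and 23.6 CPM in the GFP line. Induced myotubes had 38.0, 34.6 and 36.3 CPM in the msx2 line and 24.5, 24.5 and 22.5 CPM in the GFP line. The induced msx2-line libraries were the highest of the 16, and the other myotube groups overlapped. Induction of msx2 raised Hdac4 1.52-fold (0.60 ± 0.07, adjusted p = 3.76e-06), with a difference from the GFP line's induction of 0.65 ± 0.09 (adjusted p = 0.000166). Differentiation raised it 1.38-fold in the GFP line (adjusted p = 4.51e-05) and 1.14-fold in the msx2 line (adjusted p = 0.0359). The msx2-line rise did not pass without the filter on low counts (adjusted p = 0.11), in DESeq2 (0.0677), with only the compared groups (0.109) or in 4 of the refits that left out a library.

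Hdac5, a close relative of Hdac4 whose export from the nucleus under calcium-dependent kinases is tied to muscle differentiation, was at 94.8 and 87.5 CPM in msx2-line and 76.1 and 73.8 CPM in GFP-line myoblasts. Uninduced myotubes had 79.1, 61.9 and 73.9 CPM in the msx2 line and 76.6, 70.7 and 78.4 CPM in the GFP line. Induced myotubes had 110, 91.8 and 112 CPM in the msx2 line and 82.2, 71.2 and 80.7 CPM in the GFP line. Induced msx2-line myotubes overlapped the myoblasts of that line and lay above all other myotube libraries. Induction of msx2 raised Hdac5 1.46-fold (0.55 ± 0.09, adjusted p = 0.000299), 0.50 ± 0.13 more than in the GFP line (adjusted p = 0.0158). In differentiation it gave 0.00 ± 0.11 in the GFP line (adjusted p = 0.968) and fell to 78.6% in the msx2 line (-0.35 ± 0.10, adjusted p = 0.00634). The difference between those differentiations did not pass (-0.35, adjusted p = 0.157). Upper-quartile scaling, which moved the median of all genes in that comparison from 0.08 to 0.29, ended the msx2-line call (-0.13, adjusted p = 0.203), as did a 5 CPM filter (-0.14, 0.211) and leaving out replicate 1 of the myoblasts (0.0575). The transcript is 61.0% GC against a median of 50.1% over genes tested, and with a GC correction and the replicate number as a block the difference between inductions was 0.21 (adjusted p = 0.103).

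Hdac9 had the highest level per kilobase among the 4 deacetylases in every group. Its gene also makes a short protein form that binds MEF2 and lacks the catalytic region, which gene-level counts do not separate. In myoblasts it was at 1042 and 915 CPM in the msx2 line and 807 and 817 CPM in the GFP line. Uninduced myotubes had 325, 422 and 368 CPM in the msx2 line and 345, 350 and 368 CPM in the GFP line. Induced myotubes had 247, 325 and 306 CPM in the msx2 line and 337, 356 and 358 CPM in the GFP line. Myoblasts were above all myotubes, the GFP-line myotube groups overlapped, and the highest induced msx2-line library (324.6 CPM) was just under the lowest uninduced one (324.9 CPM). Differentiation lowered Hdac9 to 43.6% in the GFP line (-1.20 ± 0.11, adjusted p = 6.46e-08) and to 38.0% in the msx2 line (-1.40 ± 0.11, adjusted p = 9.14e-09). Induction of msx2 lowered it further, to 78.7% (-0.35 ± 0.10, adjusted p = 0.0136), but the difference from the GFP line did not pass (-0.33 ± 0.14, adjusted p = 0.127). The induction call was lost without uninduced replicate 2 (-0.24, adjusted p = 0.0721) or induced replicate 1 (-0.23, 0.0748), with only the compared groups (0.0947), and with GC correction and block (-0.15, 0.263), while the difference from the GFP line passed without uninduced msx2-line replicate 1 (-0.42, 0.0449).

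Set directly against each other, induced myotubes of the 2 lines differed in 5 members, where 35.3% of all genes passed (17.6% higher and 17.8% lower). Hdac7 (1.55 ± 0.12, adjusted p = 1.65e-07), Mef2a (0.62 ± 0.09, 4.53e-05), Hdac4 (0.61 ± 0.07, 3.47e-06) and Hdac5 (0.43 ± 0.09, 0.00218) were higher in the msx2 line. Mef2c was lower (-1.63 ± 0.15, adjusted p = 9.14e-07), and Hdac9 missed the threshold narrowly (-0.26 ± 0.10, adjusted p = 0.0519). Hdac9 passed here with the replicate block (-0.27, adjusted p = 0.0261), with RLE scaling (-0.28, 0.0373) and in DESeq2 (-0.28, 0.0289). Hdac5 did not pass with GC correction and block (0.11, 0.174), while Mef2d then did (-0.29, 0.00396). Against myoblasts of their own line, where 80.9% of all genes passed (42.4% higher and 38.4% lower), induced msx2-line myotubes had 4 members higher, Mef2a (7.4-fold), Mef2c, Mef2d (0.97 ± 0.10, adjusted p = 1.9e-07) and Hdac4 (1.73-fold). Hdac7 and Hdac9 (29.9%) were lower there, while Hdac5 gave 0.20 ± 0.11 (adjusted p = 0.0905) and Mef2b 0.31 (adjusted p = 0.0661). Upper-quartile scaling, which moved the median of all genes there from 0.12 to 0.32, put both past the test (0.00108 and 0.00584), as did a 5 CPM filter (0.00171 and 0.00422) and GC correction with the block (0.0152 each). The replicate block alone put Hdac5 past it (0.16, 0.0344), as did leaving out induced replicate 2 (0.0145). Mef2b passed without induced replicate 1 (0.0197) or GFP-line uninduced myotube replicate 1 (0.042). These comparisons share libraries with the inductions and differentiations above and are not further evidence of the same changes.

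Levels of different members were compared as CPM per kilobase of the longest RefSeq-matched transcript. In msx2-line myoblasts the Mef2 family summed to 29.5 CPM per kilobase, of which Mef2d gave 49.8%, Mef2a 25.0%, Mef2b 15.7% and Mef2c 9.49%. In uninduced myotubes of that line the sum was 479 ± 43.2 (SD, n = 3) and Mef2c gave 84.9 ± 0.506%. After msx2 induction the sum was 253 ± 31.8 (n = 3), with 64.5 ± 3.58% from Mef2c, 21.8% from Mef2a and 11.4% from Mef2d. GFP-line myotubes had 88.1% from Mef2c before and 87.5% after doxycycline. The deacetylases summed to 280 CPM per kilobase in msx2-line myoblasts, 109 in uninduced and 109 in induced myotubes. The uninduced libraries ranged from 98.6 to 119 and the induced ones from 101 to 114, so the totals overlapped. Within that total Hdac9 went from 77.3 ± 2.86% to 60.4 ± 4.52%, Hdac7 from 4.37 ± 0.706% to 13.0 ± 0.818%, Hdac5 from 15.6% to 22.5% and Hdac4 from 2.73% to 4.12%. The ratio of summed deacetylase to summed Mef2 levels was 9.5 in msx2-line myoblasts, 0.229 ± 0.0411 in uninduced and 0.436 ± 0.0454 in induced myotubes (n = 3 each, libraries not overlapping), and 8.93, 0.171 and 0.184 in the same order in the GFP line.

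These shares are descriptions with no test, and they depend on which transcript length is used. With the longest of any annotated transcript, a choice made after seeing the data, Mef2c gave 4.57%, 71.9% and 45.4% in myoblasts, uninduced and induced myotubes of the msx2 line, and the ratios were 6.11, 0.262 and 0.444. With the median transcript length Mef2c gave 4.87%, 76.3% and 52.2%, and the ratios were 5.28, 0.224 and 0.379. Under all 3 lengths the induced ratio lay between the uninduced and the myoblast values and nearer the uninduced one.

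**Figure D3:**
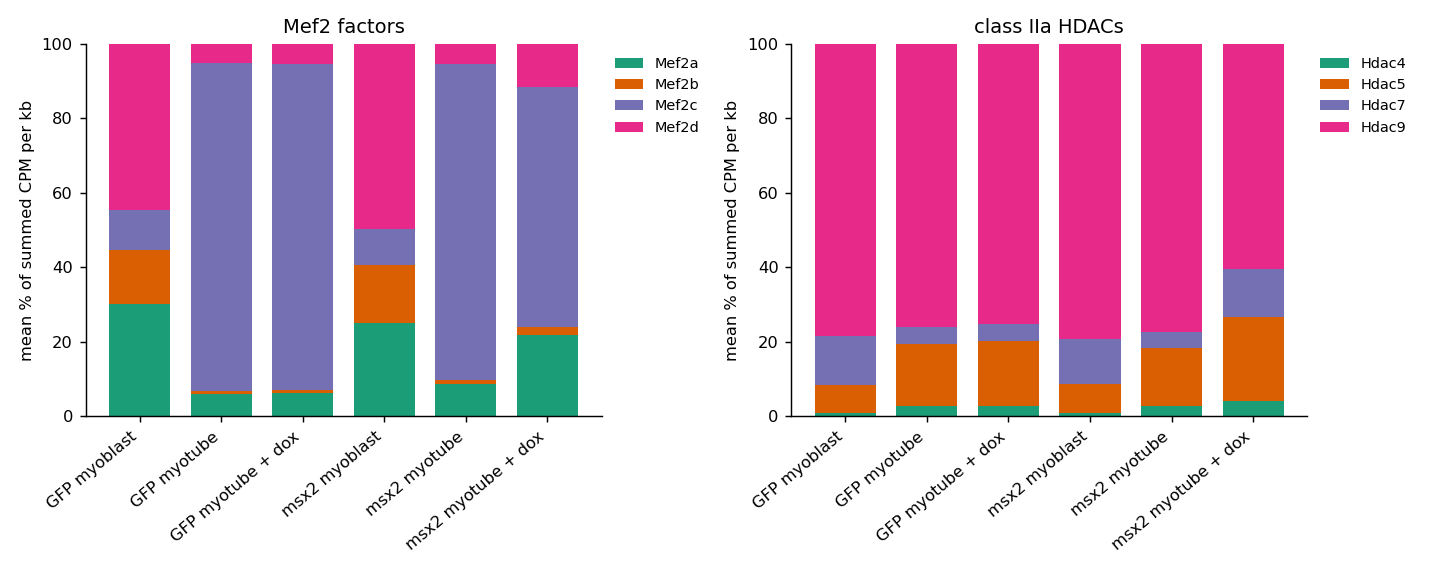
Share of each member in its family's summed CPM per kilobase of the longest RefSeq-matched transcript, as stacked bars from 0 to 100% for the 6 groups, with Mef2 factors and class IIa deacetylases in separate panels. Mef2c takes 84.9% of the Mef2 sum in uninduced and 64.5% in induced msx2-line myotubes, and Hdac9 takes the largest share of the deacetylase sum in all 6 groups.

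Genes that act on or with the members were described from lists of 7 to 22 tested genes, 117 distinct genes besides the members. On doxycycline in the GFP line, 0 of the 117 passed edgeR's test, 0 had an unadjusted p under 0.05 and 0 passed in DESeq2. On msx2 induction 67 of the 117 passed, 57.3% against 32.5% of all genes. The lists were chosen with results of these data known, so that share is a description. The counts for each list are drawn in the plot of gene lists. The difference of inductions passed for fewer in most lists (all genes: 9.15% higher, 8.78% lower). Higher and lower, it gave 4 and 2 of 21 deacetylase kinases and 1 and 0 of 7 14-3-3 genes. Of 14 repressor partners it gave 1 and 2, and of 7 other deacetylases 3 and 0. Of 14 coactivators it gave 2 and 1, and of 18 MEF2 kinase and calcineurin genes 4 and 2. Of 10 basic helix-loop-helix genes it gave 1 and 5, of 22 muscle targets 3 and 8, and of 8 early-response targets 1 and 1.

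Kinases that phosphorylate class IIa deacetylases, listed with kinases upstream of them, moved both ways on msx2 induction. Of 21, 7 were higher and 7 lower, where 16.2% and 16.3% of all genes were. Camk2a, a calcium/calmodulin-dependent kinase, went from 189 to 385 CPM (1.02 ± 0.08, adjusted p = 9.38e-08), after a differentiation change of 6.98 in the GFP line and 6.26 in the msx2 line. Camkk2, which activates other kinases of that family, went from 9.29 to 14.9 CPM (0.68 ± 0.09). Prkaa1, a catalytic subunit of the AMP-activated kinase, went from 124 to 73.4 CPM (-0.76 ± 0.09), and Camk1g from 6.54 to 2.59 CPM (-1.34 ± 0.20). Of 7 genes for 14-3-3 proteins, which hold phosphorylated class IIa deacetylases in the cytoplasm, 1 rose: Ywhag, from 379 to 506 CPM (0.42 ± 0.05, adjusted p = 1.63e-05). In differentiation 6 of these 7 fell in the GFP line and all 7 in the msx2 line, where 37.9% and 39% of all genes were lower, with medians of -0.80 and -1.24. Without uninduced replicate 1 or induced replicate 2, 4 kinases were lower. Without uninduced replicate 2 or induced replicate 3, and with the replicate block, 2 of the 14-3-3 genes were higher.

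Among repressor proteins that class IIa deacetylases work with, 2 of 14 were higher and 3 lower on msx2 induction. Of all genes 16.2% were higher and 16.3% lower there. Bcl6, a repressor that binds class IIa deacetylases, fell from 84.8 to 32.5 CPM (-1.38 ± 0.14, adjusted p = 3.59e-06), having risen by 2.74 and 2.41 in differentiation. Suv39h1, a histone methyltransferase, fell by 0.95 ± 0.17, and Ankra2, an ankyrin-repeat protein that binds class IIa deacetylases, rose by 0.32 ± 0.08. For Ankra2 the difference from the GFP line's induction passed only with GC correction and block (0.43, adjusted p = 0.00628). Of 7 other histone deacetylases 4 rose, against 16.2% of all genes, with a list median of 0.34. Among them were Hdac11 (11.8 to 22.5 CPM, 0.93 ± 0.10) and Hdac10 (8.86 to 13.0 CPM, 0.55 ± 0.10). Without uninduced replicate 2, 4 repressor proteins were higher, and with GC correction and block 6 were lower.

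Of 14 coactivators of MEF2, 6 rose and 1 fell on msx2 induction, where 16.2% of all genes were higher and 16.3% lower. Mamstr, a muscle coactivator of MEF2, went from 1.98 to 12.8 CPM (2.68 ± 0.20, adjusted p = 7.85e-08), and Ppargc1a, the coactivator PGC-1alpha, from 3.40 to 7.65 CPM (1.17 ± 0.21, adjusted p = 0.00039). Vgll2, a cofactor of TEAD and MEF2 factors in muscle, went from 12.8 to 2.27 CPM (-2.46 ± 0.48, adjusted p = 0.00152). The next list joined kinases acting on or upstream of MEF2 with calcineurin subunits, a calcineurin regulator and NFAT transcription factors. It gave 4 higher and 4 lower of 18. Mapk12, the p38 gamma kinase of muscle, went from 36.0 to 155 CPM (2.11 ± 0.13, adjusted p = 1.88e-08), and its upstream kinase Map2k3 from 108 to 178 CPM (0.73 ± 0.07). Mapk14, the p38 alpha kinase, went from 132 to 93.9 CPM (-0.49 ± 0.09), and Rcan1, a calcineurin regulator, from 56.7 to 37.9 CPM (-0.58 ± 0.12). The 2 p38 genes thus moved in opposite directions. Of 10 basic helix-loop-helix genes and their inhibitors, 3 rose and 5 fell. Myf5, a factor of undifferentiated myoblasts, fell by 1.98 ± 0.18, and Tcf4, an E protein, fell from 150 to 87.5 CPM. Id2, which blocks E proteins, rose by 0.65 ± 0.14, and Tcf3, which encodes the E proteins E12 and E47, by 0.32 ± 0.07, a call lost with GC correction and block (0.03, adjusted p = 0.706). For Tcf3 the difference from the GFP line's induction did not pass. It passed at 5 CPM (0.32, adjusted p = 0.0402), with the replicate block (0.30, 0.0356) and in 3 of the refits that left out a library. Without uninduced replicate 1 or induced replicate 3, 2 genes of the kinase and calcineurin list were lower, and with only the compared groups 3 coactivators were higher. With GC correction and block 3 coactivators were lower and 1 of the basic helix-loop-helix list was higher.

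Known MEF2 targets of muscle were higher together with Mef2c in differentiation, 22 of 22 in both lines, against 39.8% and 40.8% of all genes, with median changes of 6.09 in the GFP line and 4.42 in the msx2 line. On msx2 induction they divided, with 11 lower and 7 higher of 22 and a median of -0.21. Of all genes 16.3% were lower and 16.2% higher there. Myl1, which encodes a light chain of fast myosin, was at 3195 CPM before and 1208 CPM after (-1.40 ± 0.11, adjusted p = 9.58e-08), and Lmod3, an actin nucleator of thin filaments, fell from 412 to 225 CPM (-0.87 ± 0.08). Slc2a4, the insulin-responsive glucose transporter, rose 7.32-fold (2.87 ± 0.14, adjusted p = 1.19e-09). The muscle targets stood apart between the lines in myoblasts, where 17 of 22 were higher in the msx2 line (9.09% of all genes were) with a median of 1.12. In uninduced myotubes 0 of 22 differed between the lines (0.0616% of all genes did), with a median of -0.08. The difference between differentiations, which shares those myoblast libraries, passed downwards for 16 of 22 (4.27% of all genes did) with a median of -1.23. Of 8 targets in the early-response class, on which class IIa deacetylases are known to act, 4 fell and 1 rose on msx2 induction. The 1 that rose was Nr4a1, an orphan nuclear receptor, from 14.6 to 66.7 CPM (2.19 ± 0.13, adjusted p = 6.53e-09). Klf4 went from 39.4 to 22.1 CPM (-0.84 ± 0.15) and Klf6 fell by 0.40 ± 0.08, both Krüppel-like factors. For Klf6 the difference from the GFP line's induction did not pass. It passed with the replicate block (-0.32, adjusted p = 0.0128) and without msx2-line uninduced myotube replicate 1 (0.0301) or induced replicate 2 (0.0258). This list also holds Hdac9, itself a MEF2 target. Without induced replicate 1, 2 of the list were lower.

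**Figure D4:**
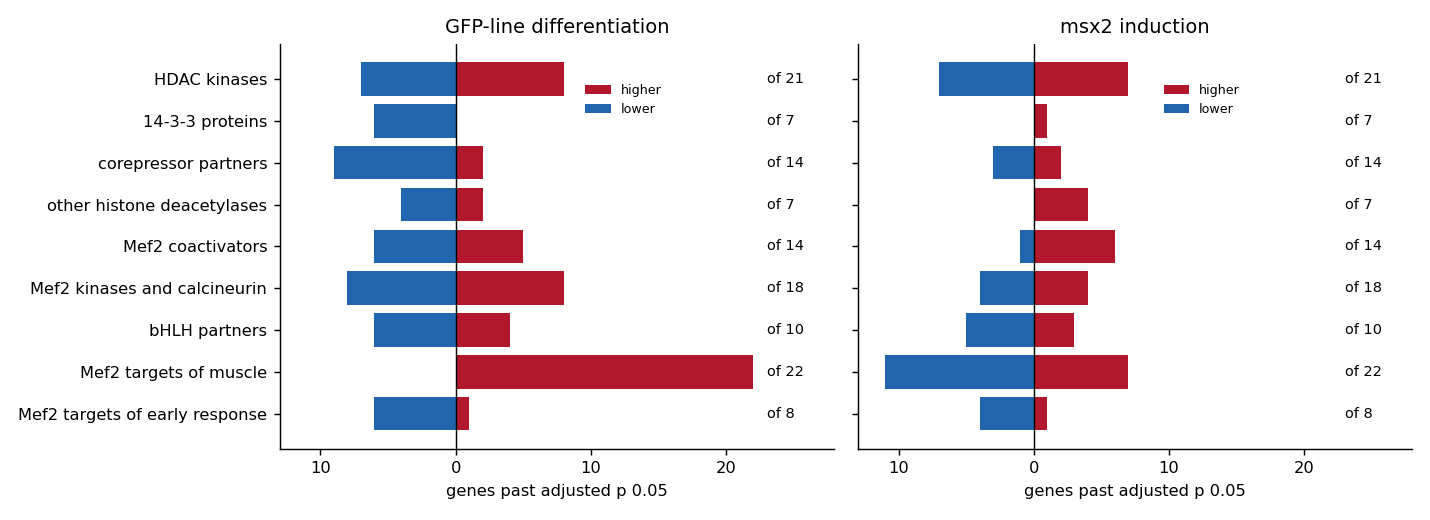
Number of genes higher (right of 0) and lower (left of 0) at an adjusted p under 0.05 in each list, for differentiation of the GFP line and for msx2 induction. All 22 muscle targets are higher in differentiation, whereas on msx2 induction 7 are higher and 11 lower.

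Across the 16 libraries, the genes whose log2 CPM followed each member most closely were taken from 12466 candidates by Pearson's r. For Mef2c these were the sarcomere genes Ttn and Neb, with Col25a1 (r = 0.998 each). For Mef2a they were Klhl24, Atp6v1d and Samd8 (0.995 to 0.996), and for Mef2d Parp3, Scamp2 and Ptges3l (0.987 to 0.989). Hdac7 was followed by Gtl3, Mboat7 and Vmn2r-ps54 (0.992 to 0.995), and Hdac9 by Atp8a2, Sdk1 and Terf2 (0.999 each). Hdac4 was followed by Fam63a, Plekhm2 and Klhdc3 (0.980 to 0.984), and Hdac5 by Tet3 (0.962), Atf7ip and Cep85. Mef2b had the weakest leading values, 0.882 to 0.891 with Psd, Noxo1 and Mylip. These points share libraries and depth, and most of the spread is the step from myoblasts to myotubes, so the values describe likeness of pattern and carry no test. Over the 12 myotube libraries the leading genes were Tfrc, Nctc1 and Tmem9 for Mef2c (0.991 to 0.996) and Prkce, Man1c1 and Itga3 for Hdac7 (0.992 to 0.996). There Azi1, Padi4 and Bag3 led for Mef2a (0.962 to 0.981), and Pde2a, Arap1 and Wnk2 for Hdac4 (0.987 to 0.989). Slc12a7, Slc6a9 and Lamb2 led for Hdac5 (0.974 to 0.982), and Terf2, Agrp and Pde6a for Hdac9 (0.996 to 0.998).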

How the data were processed

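RNA was sequenced from 16 pmi28 libraries in 6 groups, made with a stranded mRNA kit per the labels' protocols. The authors deposited whole-number counts of reads per gene, not normalized, with TopHat2 2.0.11, SAMtools 0.1.19, edgeR 3.6.8 and mm9 named, without roles, per the submitters' processing notes. Which tool counted the reads, on which annotation and with which strand setting, is not given in the sources used here. Of 19866 entries, 67 without a symbol (0.0601 to 0.0878% of counts a library) were left out.

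Counts were fitted with edgeR 4.0.16 and limma 3.58.1 in R 4.3.3: filterByExpr with a minimum count of 10, TMM scaling, 1 coefficient per group over all 16 libraries, and a robust two-sided quasi-likelihood test for each of 10 comparisons, with Benjamini-Hochberg adjustment over the 16245 genes tested and a threshold of 0.05. The standard error is the absolute log2 fold change divided by the square root of F. CPM use TMM-adjusted library sizes. The procedure was checked on simulated counts. Levels per kilobase use the longest RefSeq-matched transcript of GRCm38. Since mm9 coordinates could not be matched to that build, only promoter windows carry coordinates.

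The members, lists, named genes and markers were chosen with earlier results of these data known. The text names all 8 members, up to 2 higher and 2 lower genes with the smallest adjusted p in msx2 induction for each list, and the 3 genes most like each member over 16 libraries and, for members that passed in msx2 induction, over 12. 1 gene that this rule names is not reported here, though the counts for its list include it. Alternatives were scaling by RLE or by the upper quartile, a filter of none or of at least 5 CPM in 3 libraries, a block for the replicate number, that block with an offset for GC content (known for 99.3% of genes tested), only the compared groups, DESeq2 1.42.0, each library left out in turn, and 2 other transcript lengths. The labels number replicates alike in all groups. Deviations of same-numbered libraries correlated at 0.394, 0.508 and 0.207 between uninduced and induced msx2-line myotubes and at 0.359, 0.414 and 0.453 in the GFP line, and at 0.177, 0.274 and 0.288 between the uninduced myotubes of the lines, so the numbers pair those groups. Between myoblasts and uninduced myotubes the values were -0.0103 and 0.00524 in the msx2 line and 0.00945 and 0.0113 in the GFP line, so no such pairing showed there.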

Additional observations from a re-analysis of the deposited data

Results flagged for a closer look

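For the values given here the change differed between the 2 lines by a test of the difference itself (adjusted p under 0.05 in edgeR over all genes tested). All but 1 are msx2 induction minus GFP induction on the log2 scale, where 17.9% of all genes passed. Among the members these were Hdac7 (1.57), Hdac4 (0.65), Hdac5 (0.50), Mef2a (0.48) and Mef2c (-1.18). The Hdac5 call was lost with the block and GC offset (0.21, adjusted p = 0.103). The other was Mef2d, whose rise in differentiation was smaller in the msx2 line (-0.60), with 8.28% of all genes passing. That call was lost without 3 of the 4 myoblast libraries in turn (adjusted p = 0.0576 to 0.0911).

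Among the listed deacetylase kinases, kinases upstream of them and 14-3-3 genes the differences were Camk2a 0.97, Camkk2 0.70, Ywhag 0.32, Prkaa1 -0.78 and Camk1g -1.25. Among repressor partners and other deacetylases they were Hdac11 0.99, Hdac10 0.52, Suv39h1 -0.90 and Bcl6 -1.44. The Hdac10 call was lost with the block and GC offset (0.30, adjusted p = 0.094) and without GFP-line induced replicate 1 (0.0526). Among MEF2 coactivators, kinases and calcineurin genes they were Mamstr 2.54, Mapk12 2.08, Ppargc1a 1.21, Map2k3 0.66, Mapk14 -0.47, Rcan1 -0.55 and Vgll2 -2.46. The Rcan1 call was lost in 12 of the 16 refits that left out a library (adjusted p up to 0.102) and with only the compared groups (0.0713). Among basic helix-loop-helix genes they were Id2 0.73, Tcf4 -0.75 and Myf5 -1.95. The Id2 call was lost without msx2-line uninduced myotube replicate 1 (adjusted p = 0.056) or 3 (0.0541) or GFP-line induced replicate 3 (0.051). Among MEF2 targets they were Slc2a4 2.91, Nr4a1 2.13, Lmod3 -0.83, Klf4 -0.85 and Myl1 -1.36.

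The groups of 2 or 3 libraries are too small for a test of single outlying libraries.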

How the results depend on the processing

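Of 90 values a setting (8 members and a count of members called, in each of 10 comparisons), direction and side of the threshold held for 89 with RLE scaling, 84 with upper-quartile scaling, 87 without the filter, 84 at 5 CPM, 83 with the block, 70 with the block and GC offset, 84 with only the compared groups and 87 in DESeq2. Signs turned only for values that did not pass. Without the filter these were Mef2b in GFP induction (-0.0033) and Hdac5 in GFP-line differentiation (-0.034). In DESeq2 it was Mef2b in GFP induction (-0.00059), and with the block Hdac5 in GFP-line differentiation (-0.0304). With the block and GC offset they were, in msx2 induction, Mef2b (-0.11) and Mef2d (-0.0501), and in the difference of inductions Mef2b (-0.13) and Mef2d (-0.0185). There too were Mef2a (-0.0215) and Hdac7 (0.0129) in the difference of differentiations, Mef2b (-0.24) between induced lines, and Mef2a (0.17), Mef2c (0.16) and Hdac7 (-0.0542) between myoblasts. The cause was not tested.

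The replicate block changed no member's call in either induction or in their difference. In the difference of differentiations it gave 2 members called (Mef2d and Hdac5, adjusted p = 0.0189). Between myoblasts 0 members were called with upper-quartile scaling or at 5 CPM, 2 with the block and 4 with only the compared groups. Replicate numbers showed no pairing of myoblasts with uninduced myotubes, so the block's calls in both comparisons rest on the numbering. Leaving out libraries gave 0 to 2 members in the difference of differentiations and 0 to 1 between myoblasts. It also turned signs in GFP induction, over ranges of -0.115 to 0.0725 (Mef2b), -0.243 to 0.00086 (Mef2c), -0.0963 to 0.0407 (Mef2d), -0.0669 to 0.0388 (Hdac7) and -0.0338 to 0.0138 (Hdac9). The other ranges were -0.0359 to 0.0392 for Hdac5 in GFP-line differentiation, -0.148 to 0.0245 (Hdac5), -0.21 to 0.14 (Hdac7) and -0.0316 to 0.155 (Hdac9) between uninduced lines, and -0.25 to 0.14 for Mef2c between myoblasts.

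Counts over all genes moved by over 1.5 times in 4 comparisons. GFP induction gave 5 genes, with 9 under the block, 11 with GC offset, 3 with only the compared groups, 10 in DESeq2 and 3 without uninduced replicate 1 or 2. Uninduced lines gave 10, with 20 without the filter, 173 under the block, 221 with GC offset, 1 with only the compared groups, 154 in DESeq2 and 2 to 28 in 12 of the refits without 1 library. The difference of differentiations gave 1345, with 2264 under the block and 454, 674 and 439 without msx2-line myoblast replicate 1 and GFP-line myoblast replicates 1 and 2. Myoblasts gave 2652, with 5173 with only the compared groups and 764, 1156 and 853 without those same libraries. The share of higher calls went from 48.4% to 66.5% (upper quartile) and 33.0% (block and GC) in the difference of differentiations, from 10.0% to 26.7% and 45.7% between uninduced lines, and from 55.7% to 37.0% (upper quartile) between myoblasts. Mef2b had the fewest counts of the 8 members, so depth limits it most.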
